A study of Mus musculus with 2 samples.

Results

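The 10 genes described here mark T cells and natural killer (NK) cells: the CD3 chains Cd3d, Cd3e and Cd3g, the coreceptors Cd4 and Cd8a, and the cytotoxic genes Nkg7, Gzma, Gzmb, Prf1 and Klrb1c. They were taken by symbol from a table of 55401 gene rows, and each symbol had 1 row. RNA was sequenced from myeloid-derived suppressor cells (MDSCs), immature myeloid cells that restrain T cells, which had been isolated with magnetic beads from C57BL/6 mice carrying tumours of the mouse colon carcinoma line MC38. The isolated cells were kept with MC38 cells for 24 h, and the mice were 8 weeks old. All mice were Mettl3fl/fl, so that exons of the m6A methyltransferase gene Mettl3 could be removed by Cre. The floxed control had no Cre (1 library), and the other genotype was LysM-cre, Mettl3fl/fl (1 library), in which the lysozyme promoter drives Cre in myeloid cells. For the latter, 1 label field names MC39 instead of MC38. The marker used for the bead isolation and the number of mice behind each library are not in the labels.

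T cells recognise antigen through a receptor whose signal is carried into the cell by the CD3 chains. CD4 and CD8 are coreceptors that bind class II and class I major histocompatibility molecules, and so divide T cells into helper and cytotoxic lineages. Cytotoxic T cells and NK cells kill through granules that release perforin, which opens membranes, and granzymes, which are proteases. MDSCs are known for suppressing these cells in tumours, and the CD3 chains are markers of T cells and not of MDSCs.

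The libraries held 59506878 counts (floxed control) and 59393864 counts (labelled LysM-cre). As each genotype had 1 library, no spread between replicates could be had and nothing was tested, and every interval below is an exact 95% interval that covers counting error only. Mettl3, the targeted gene, stood at 4.16 and 3.92 FPKM (fragments per kilobase, scaled to library depth), and its counts scaled to the library total (CPM) gave a ratio of 0.945, LysM-cre-labelled over control (interval 0.876 to 1.02). Since the whole-gene value did not differ beyond counting error, the second library is called by its label, the LysM-cre-labelled library. Of the 12 MDSC genes listed, all had counts in both libraries, 3 with the higher and 9 with the lower CPM in the LysM-cre-labelled library. S100a9, a neutrophil alarmin, stood at 6078 FPKM in the control against 5477 in the LysM-cre-labelled library. Lyz2, the gene at the LysM-cre locus, stood at 5400 and 3006 FPKM, S100a8, the partner of S100a9, at 1928 and 1578, and Ly6g, a neutrophil surface marker, at 44.5 and 31.3. The 3 higher genes were Itgam, which encodes CD11b (95.8 and 108 FPKM), Ly6c1 (15.4 and 19.9) and Csf1r, the receptor of macrophage colony-stimulating factor (456 and 481).

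All 10 T and NK cell genes were measured in both libraries, and 9 of them differed by less than 1.5-fold in CPM. Together they took 0.0527% of the counts in the control against 0.0541% in the LysM-cre-labelled library (ratio 1.03, interval 1.01 to 1.04). The CD3 and coreceptor genes lay between a ratio of 0.896 for Cd4 and 1.17 for Cd3g. Of the cytotoxic genes, Klrb1c (0.934), Nkg7 (1.10) and Prf1 (1.13) lay within that range, and Gzmb (1.37) and Gzma (1.61) above it, with Gzma the only member at 1.5-fold or more. Of 18585 rows with 20 or more counts over both libraries, 22.9% differed by 1.5-fold or more (11.8% higher and 11.1% lower in the LysM-cre-labelled library), beside this 1 of 10 members. The median log2 CPM ratio of the members was 0.06, and that of all rows past the minimum was 0.00. In bulk RNA, fewer cells of a type and less RNA per cell cannot be told apart.

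**Figure D1:**
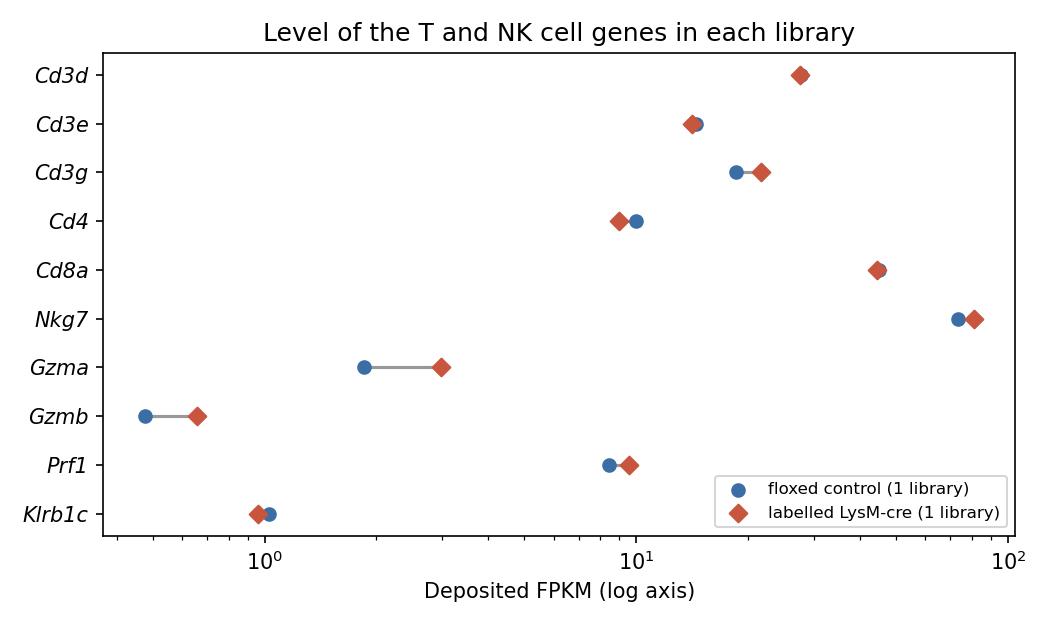
FPKM of each gene on a log axis, with a circle for the floxed control library and a diamond for the LysM-cre-labelled library, 1 library each. The members span from 0.476 FPKM for Gzmb to 80.9 FPKM for Nkg7, and the symbols of Cd3d and Cd8a nearly coincide.

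The CD3 chains come first, since they define T cells. CD3 epsilon pairs with CD3 delta and with CD3 gamma, so that each receptor holds all of these chains. The 3 genes sit together on chromosome 9 (mm10): Cd3g (ENSMUSG00000002033, 44969572 to 44980431, minus strand), Cd3d (ENSMUSG00000032094, 44981786 to 44987339, plus strand) and Cd3e (ENSMUSG00000032093, 44998740 to 45009622, minus strand). Cd3g and Cd3d are read in opposite directions from starts 1355 bases apart. The 250 bases before the RefSeq start of each CD3 gene are given below (GRCm38.p6, the assembly behind mm10). They are shown because these neighbouring genes all differed by less than 1.5-fold between the libraries. Capitals mark matches, on either strand, to the letters GGAAGT (core of sites of ETS factors), TGACGT (CREB and ATF factors), TGTGGT (RUNX factors), CAGGTG (an E-box, bound by E proteins) or TATAAA (the TATA box). The windows are chr9:44980432-44980681 for Cd3g, chr9:44981536-44981785 for Cd3d and chr9:45009612-45009861 for Cd3e, each written 5′ to 3′ on the strand of its gene.
Cd3g: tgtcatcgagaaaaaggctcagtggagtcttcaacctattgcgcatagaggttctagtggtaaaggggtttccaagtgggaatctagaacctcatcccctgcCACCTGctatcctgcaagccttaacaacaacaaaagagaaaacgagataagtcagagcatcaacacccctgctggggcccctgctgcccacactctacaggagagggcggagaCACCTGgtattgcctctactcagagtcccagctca
Cd3d: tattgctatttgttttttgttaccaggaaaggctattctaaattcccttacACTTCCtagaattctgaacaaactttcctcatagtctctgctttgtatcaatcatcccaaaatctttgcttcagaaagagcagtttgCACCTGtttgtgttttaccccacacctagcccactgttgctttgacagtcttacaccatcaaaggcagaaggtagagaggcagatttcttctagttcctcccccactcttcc
Cd3e: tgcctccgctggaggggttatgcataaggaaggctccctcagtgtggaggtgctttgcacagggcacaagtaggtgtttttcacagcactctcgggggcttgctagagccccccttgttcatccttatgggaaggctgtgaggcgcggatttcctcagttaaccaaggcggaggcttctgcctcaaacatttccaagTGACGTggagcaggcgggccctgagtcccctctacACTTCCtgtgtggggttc

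In these windows Cd3g held the E-box letters at 2 places, the nearer from base -35 to -30 before the start. Cd3d held them once (-112 to -107), together with the ETS letters (-199 to -194). Cd3e held the ETS letters close to the start (-18 to -13) and the CREB letters from -53 to -48. None of these CD3 windows held the RUNX or TATA letters. Among 32851 RefSeq windows of the same length, the E-box letters occurred in 17.2%, the ETS letters in 19.7% and the CREB letters in 6.47%, so a match is common and is given here as a description.

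Cd3d stood at 27.8 FPKM in the control against 27.5 in the LysM-cre-labelled library, on 3376 and 3324 counts (CPM ratio 0.986, interval 0.940 to 1.04). Cd3e stood at 14.5 and 14.1 FPKM, on 3958 and 3843 counts (0.973, 0.930 to 1.02). The libraries thus held these chains at levels that counting error does not separate. Cd3g was higher in the LysM-cre-labelled library, at 18.6 and 21.7 FPKM on 4054 and 4730 counts (1.17, 1.12 to 1.22). Among protein-coding rows with 1000 to 9999 counts over both libraries, which hold all the CD3 rows, 57.9% had an interval that excluded 1, and 4.66% differed by 1.5-fold or more. An interval that excludes 1, as for Cd3g, was thus found for most genes at this depth, and none of the CD3 chains reached 1.5-fold.

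The order of the CD3 chains within a library depended on the gene length behind the level. By deposited FPKM the order was Cd3d, Cd3g, Cd3e in each library. The length that the FPKM and count values imply was 1.12 times the summed annotated exons for each CD3 gene, retained-intron transcripts included. That sum is 3269 bases for Cd3g and 4080 for Cd3e, whereas their longest coding transcripts have 1023 and 1462 bases (GENCODE M21). For Cd3d the same lengths are 1815 and 1617 bases. Per kilobase of the longest coding transcript, Cd3g stood at 66.6 CPM in the control, Cd3e at 45.5 and Cd3d at 35.1, which turns the order to Cd3g, Cd3e, Cd3d. The same order held in the LysM-cre-labelled library, with Cd3g at 77.8, Cd3e at 44.3 and Cd3d at 34.6 CPM per kilobase. Reads from retained introns would be counted in either scale, so neither is a measure of the spliced message alone. The Cd3e row also overlaps Gm48720 on its own strand (0 and 16 counts) and the antisense row Gm48719 (14 and 27 counts), which are small beside the Cd3e counts.

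**Figure D2:**
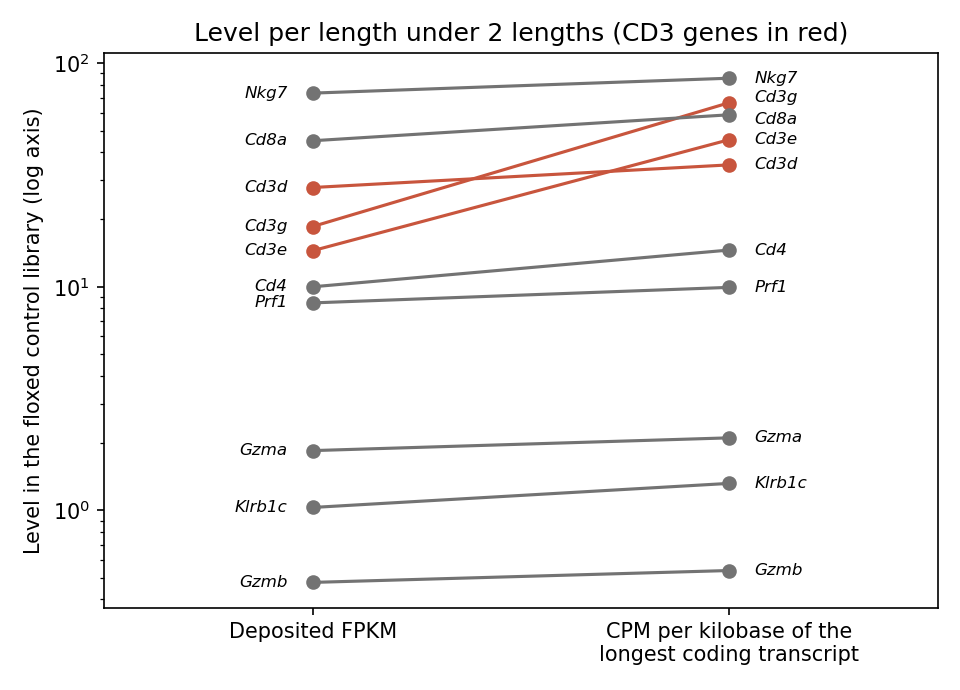
Level of the 10 genes in the floxed control library on a log axis, as deposited FPKM (left) and as CPM per kilobase of the longest coding transcript (right). Lines of Cd3g (18.6 to 66.6) and Cd3e (14.5 to 45.5) climb across that of Cd3d (27.8 to 35.1), and Cd3g also passes Cd8a, while the remaining members keep their order.

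The coreceptors stood at unequal levels, with Cd8a above Cd4 in each library. Cd8a (ENSMUSG00000053977, chromosome 6, 71373427 to 71379169, plus strand) encodes the CD8 alpha chain. It stood at 45.0 FPKM in the control against 44.4 in the LysM-cre-labelled library, on 10947 and 10772 counts (CPM ratio 0.986, interval 0.960 to 1.01). Cd4 (ENSMUSG00000023274, chromosome 6, 124864692 to 124888221, minus strand) stood at 9.998 and 8.97 FPKM, on 2696 and 2412 counts (0.896, 0.848 to 0.947). Cd4 was the only member whose interval lay below 1. In FPKM, Cd8a was 4.51 times Cd4 in the control against 4.95 times in the LysM-cre-labelled library, and per kilobase of the longest coding transcript 4.03 and 4.43 times. Cd8a thus stood above Cd4 on each length scale, and whether the ratio differs between the genotypes was not tested.

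Both coreceptors are also known from dendritic cells of the mouse, so the genes of those cells are given beside them. All 12 dendritic and plasmacytoid dendritic cell genes of the list had counts. Their summed FPKM was 131 in the control against 128 in the LysM-cre-labelled library, with 4 genes higher and 8 lower (a median log2 ratio of −0.04). Bst2, a tetherin that many activated cells also make, stood at 86.6 and 84.6 FPKM, Cox6a2, a mitochondrial subunit found in plasmacytoid cells, at 11.7 and 12.0, and the lectin gene Cd209a at 10.3 and 9.92. The part of dendritic cells in the Cd4 and Cd8a values was not tested. Cd8b1, whose product pairs with CD8 alpha on cytotoxic T cells, stood at 105 and 112 FPKM, which was 2.33 and 2.53 times Cd8a, or 2.01 and 2.17 times per kilobase of coding transcript.

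The cytotoxic genes covered the whole range of levels among the members. Nkg7, a granule membrane protein needed for the release of cytotoxic granules, was the highest member and Gzmb, granzyme B, the lowest. The upstream windows of Prf1 and Gzma are shown because they stand for the granule genes at middle and low levels (250 bases before the RefSeq start, chr10:61297586-61297835 and chr13:113100982-113101231, capitals as above).
Prf1: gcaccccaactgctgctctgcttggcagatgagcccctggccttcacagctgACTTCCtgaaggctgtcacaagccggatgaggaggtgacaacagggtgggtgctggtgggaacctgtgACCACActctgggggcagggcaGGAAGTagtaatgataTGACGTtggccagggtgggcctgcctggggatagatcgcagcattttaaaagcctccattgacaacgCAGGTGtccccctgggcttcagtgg
Gzma: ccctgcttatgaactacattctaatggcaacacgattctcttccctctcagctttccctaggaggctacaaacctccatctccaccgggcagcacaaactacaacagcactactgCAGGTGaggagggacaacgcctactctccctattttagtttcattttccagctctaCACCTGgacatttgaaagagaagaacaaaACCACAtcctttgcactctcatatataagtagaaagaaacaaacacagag

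The Prf1 window held the ETS letters at 2 places, and 1 match each of the CREB (-92 to -87), RUNX (-130 to -125) and E-box letters (-25 to -20). The Gzma window held the RUNX letters from -50 to -45 and the E-box letters at 2 places. In all, 9 of the 10 members were found in the RefSeq table. RUNX letters occurred in 5 of these 9 and in 14.0% of all windows, and ETS letters in 4 of the 9. E-box letters also occurred in 4, CREB letters in 2, and TATA letters in 0, against 12.4% of all windows. Only the exact letters TATAAA were searched, so the 0 does not show that the members lack a TATA box. These letters were chosen with the sequences in view, so the shares describe the members and test nothing.

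Nkg7 (ENSMUSG00000004612, chromosome 7, 43437073 to 43438249, plus strand) stood at 73.5 FPKM in the control against 80.9 in the LysM-cre-labelled library, on 4492 and 4930 counts (CPM ratio 1.10, interval 1.06 to 1.15). Prf1, perforin (ENSMUSG00000037202, chromosome 10, 61297833 to 61304680, plus strand), stood at 8.47 and 9.58 FPKM on 1464 and 1651 counts (1.13, 1.05 to 1.21). Both were slightly higher in the LysM-cre-labelled library, by less than 1.5-fold. Gzma, granzyme A (ENSMUSG00000023132, chromosome 13, 113093825 to 113100981, minus strand), stood at 1.85 and 2.99 FPKM on 125 and 201 counts (1.61, 1.28 to 2.03). It had the largest ratio of the members, on few counts, and as FPKM with a pseudocount of 1 its ratio was 1.40, under the 1.5-fold size. Of protein-coding rows with 100 to 999 counts over both libraries, 24.8% differed by 1.5-fold or more and 13.1% were higher by that much, so a ratio of this size was common at the depth of Gzma.

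Gzmb (ENSMUSG00000015437, chromosome 14, 56258838 to 56262260, minus strand) stood at 0.476 FPKM in the control against 0.657 in the LysM-cre-labelled library. Its 46 and 63 counts gave a ratio of 1.37 with an interval from 0.923 to 2.05, so a difference was not detectable at this depth. Klrb1c, which encodes the NK1.1 antigen of NK cells in C57BL/6 mice (ENSMUSG00000030325, chromosome 6, 128778485 to 128789215, minus strand), stood at 1.03 and 0.963 FPKM on 206 and 192 counts (0.934, 0.763 to 1.14). Its row overlaps Gm44511, which held 0 counts in both libraries. Within a library, Gzmb stood at 0.0561 times Prf1 in the control against 0.0686 times in the LysM-cre-labelled library, and Gzma at 0.218 and 0.312 times. Perforin message thus stood well above that of granzymes A and B in each library.

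Over the 10 members, the interval excluded 1 for 5, above 1 for Cd3g, Nkg7, Prf1 and Gzma and below 1 for Cd4. Of all rows with 20 or more counts, 55.7% had such an interval, 28.1% above 1 and 27.5% below. The share among the members is near that background. By FPKM in the control the order from the top was Nkg7, Cd8a, Cd3d, Cd3g, Cd3e, Cd4, Prf1, Gzma, Klrb1c and Gzmb. In the LysM-cre-labelled library only Prf1 and Cd4, which stood close to each other, changed places.

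**Figure D3:**
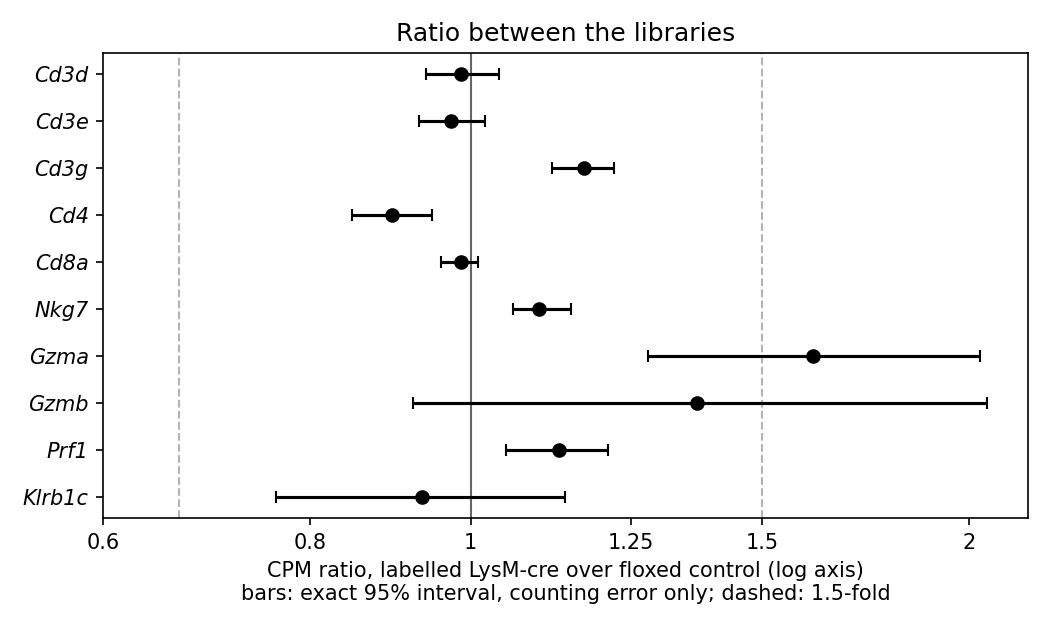
CPM ratio of each gene, LysM-cre-labelled library over floxed control, on a log axis, with exact 95% intervals that cover counting error only. The dashed lines mark 1.5-fold, which Gzma (1.61) alone passes, and the widest intervals belong to Gzma, Gzmb and Klrb1c.

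**Figure D4:**
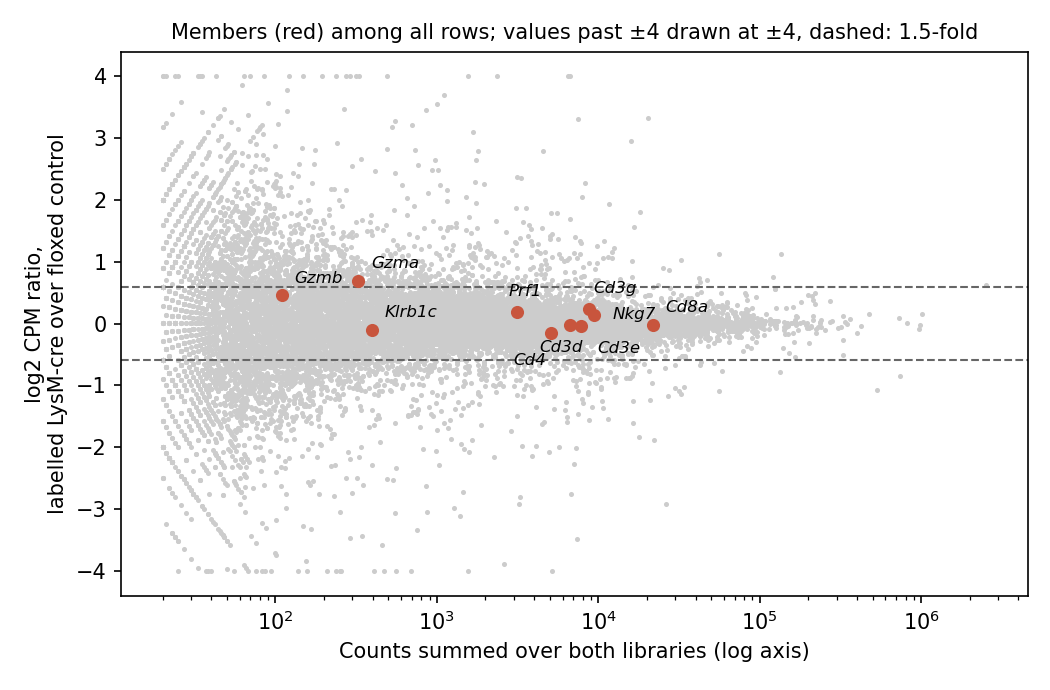
log2 CPM ratio against the counts summed over both libraries (log axis), for rows with 20 or more counts (grey) and the 10 genes (red). Values past 4 in either direction are drawn at 4, and rows with a count of 0 in either library are not drawn. The grey cloud widens toward low counts, where Gzma and Gzmb lie. The dashed lines mark 1.5-fold. Of all 18585 rows with 20 or more counts, drawn or not, 22.9% were 1.5-fold or more apart.

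Other genes of T cell receptor signalling and the T cell surface were measured at 18 of 18, where 16 had the higher CPM in the LysM-cre-labelled library and 2 the lower, and 1 was 1.5-fold or more apart. The median log2 ratio was 0.09, against 0.00 over all rows. The interval lay above 1 for 12 of the 18 and below 1 for 1, beside 28.1% and 27.5% of all rows. Most of these genes had 1000 or more counts over both libraries. Of protein-coding rows with 1000 to 9999 counts, 57.9% had an interval that excluded 1, in either direction. A difference of 1.5-fold or more was found at 4.66% of the same rows and at 22.9% of all rows. Lcp2, an adaptor also used by myeloid cells, stood at 85.0 and 90.8 FPKM, and Lck, the kinase that phosphorylates CD3 chains, at 48.6 and 48.9. Cd247, the zeta chain that completes the assembled receptor, stood at 6.72 FPKM in the control against 7.74 (CPM ratio 1.15, interval 1.09 to 1.22). Trat1, a receptor-associated adaptor, was the row at 1.5-fold or more, at 0.102 and 0.249 FPKM on 32 and 78 counts (2.44, 1.60 to 3.81). Ubash3a, a regulator of receptor signalling, stood at 1.58 and 2.12 FPKM on 1190 and 1591 counts (1.34, 1.24 to 1.45), and the adaptor gene Lat at 16.4 and 19.6 FPKM on 3029 and 3613 counts (1.20, with its interval above 1). Cd27 was the gene with its interval below 1, at 22.7 FPKM in the control against 19.8 in the LysM-cre-labelled library (CPM ratio 0.874, interval 0.833 to 0.918). Most of the 18 genes were thus slightly higher in the LysM-cre-labelled library, by less than 1.5-fold at all but Trat1.

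Of 18 other genes for granule proteins and effectors, 12 passed the minimum and 6 had no count in either library. The 6 were the granzyme genes Gzmc, Gzmd, Gzme, Gzmf, Gzmg and Gzmn, and a count of 0 allows up to 0.0504 CPM in the control against 0.0505 in the LysM-cre-labelled library. Among the 12, 5 had a higher and 7 a lower CPM, and the median log2 ratio was −0.01. The most abundant were general granule and lysosome genes that myeloid cells share: Lamp1 at 290.2 and 288 FPKM, Srgn, the granule proteoglycan serglycin, at 286 and 279.6, and Ctsc, a protease that activates granzymes, at 81.6 and 81.5. Ctsw, a protease gene of cytotoxic lymphocytes, was higher, at 29.9 FPKM in the control against 41.6 in the LysM-cre-labelled library on 3769 and 5240 counts (CPM ratio 1.39, interval 1.34 to 1.45). Fasl, the death ligand of cytotoxic cells, was lower, at 1.94 and 1.51 FPKM on 251 and 195 counts (0.778, 0.642 to 0.942). Gzmm, granzyme M, stood at 16.3 FPKM in the control against 16.6 (CPM ratio 1.02, interval 0.949 to 1.09). In FPKM it was 8.83 times Gzma in the control against 5.55 times in the LysM-cre-labelled library, and it had the highest FPKM of the granzyme genes listed. Gzmk, granzyme K, stood at 0.0797 and 0.765 FPKM on 8 and 72 counts (9.02, 4.34 to 21.7). Of protein-coding rows with 20 to 99 counts over both libraries, 64.3% differed by 1.5-fold or more, 34.5% upward. The share with a ratio as large as that of Gzmk was not counted.

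All 24 NK receptor and NK effector genes had 20 or more counts, with 14 higher and 10 lower (a median log2 ratio of 0.03), and 3 of them were 1.5-fold or more apart, beside 22.9% of all rows. The chemokine gene Ccl5 stood at 127 and 119 FPKM, Il2rb, a receptor chain for interleukins 2 and 15, at 70.04 and 68.8, and Cd244a, an NK receptor also found on myeloid cells, at 24.9 and 23.5. Klrd1, the CD94 chain of NK receptors, stood at 20.1 FPKM in the control against 20.6 (CPM ratio 1.03, interval 0.960 to 1.10). Ncr1, the receptor NKp46 that is more restricted to NK cells, stood at 0.991 and 0.553 FPKM on 102 and 57 counts (0.560, 0.398 to 0.782). Klra9 was higher, on 59 and 98 counts, as was Klrb1a, a relative of Klrb1c, on 4 and 18 counts. At counts this low, differences of 1.5-fold or more were common, at 24.8% of protein-coding rows with 100 to 999 counts and 64.3% of those with 20 to 99. The ratio of Klrb1a was larger (4.51, interval 1.49 to 18.3), and the share of rows with a ratio that large was not counted. The Klr genes belong to families of similar sequence, and the counting of reads that match several genes is not given in the sources, so their values are uncertain, as are those of Klrb1c.

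Genes of other cell types are given beside the members. The CPM was lower in the LysM-cre-labelled library for 8 of 8 B cell genes. It was lower for 6 of 7 mast cell and basophil genes with 20 or more counts, and for 8 of 12 dendritic genes. The summed counts of the dendritic list were level (CPM ratio 1, interval 0.978 to 1.02). Over all rows the median log2 ratio was 0.00, so neither direction prevailed. The interval lay below 1 for 3 of the 7 mast cell and basophil genes and 3 of the 12 dendritic genes. Of all rows, 27.5% had such an interval. The listed MDSC genes were also mostly lower, at 9 of 12, with a median log2 ratio of −0.15. B cell genes had a median log2 ratio of −0.15, against 0.00 over all rows. The interval lay below 1 for 7 of the 8, beside 27.5% of all rows. Of protein-coding rows with 1000 to 9999 counts, which hold most of these genes, 57.9% had an interval that excluded 1, in either direction. Cd79a stood at 74.9 and 67.3 FPKM, Cd79b at 56.2 and 52.7, and Fcrla at 13.0 and 7.58. The summed FPKM of the 8 genes was 209.7 and 187. Granzyme B is also known from mast cells and basophils. Of 10 genes of these cells, Cma1, Tpsb2 and Mcpt4, which mark mast cells, had no count, the median log2 ratio of the other 7 was −0.50, and the summed FPKM was 2.58 in the control against 1.73 in the LysM-cre-labelled library. Kit stood at 0.948 and 0.633 FPKM, Mcpt8 at 0.610 and 0.420, and Prss34 at 0.386 and 0.272, while Cpa3 was higher on 7 and 33 counts and Ms4a2 lower on 29 and 7. At 20 to 99 counts over both libraries, as Cpa3, Ms4a2 and Fcer1a held, 64.3% of protein-coding rows differed by 1.5-fold or more. The share with ratios as large as theirs was not counted. Fcer1a, a chain of the IgE receptor, held 24 counts in the control against 0 in the LysM-cre-labelled library (CPM ratio 0, interval 0 to 0.166). With 3 counts taken as the floor of that library the bound was 7.98-fold lower, a value that leaves out the counting error of the control. The interval, which covers the counting error of both libraries, allows a smaller difference. The part of these cells in the Gzmb value was not tested.

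**Figure D5:**
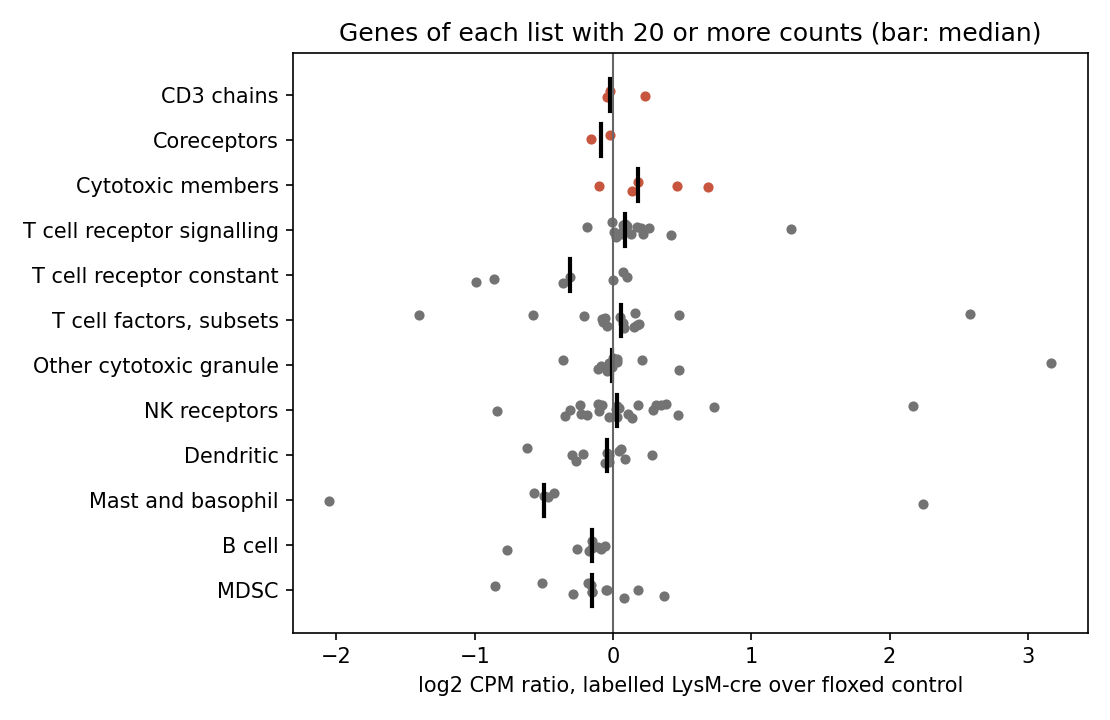
log2 CPM ratio of each listed gene with 20 or more counts over both libraries, by list, with the median as a bar and the 10 members in red. Medians of the lists lie between −0.50 (mast and basophil) and 0.18 (cytotoxic members), and single genes on few counts lie farthest out. Fcer1a, with 0 counts in 1 library, enters the median and is not drawn.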

How the data were processed

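Poly(A) RNA of 2 MDSC libraries, 1 per genotype in the labels, was sequenced. Per the submitters' processing notes, the tools on build mm10 were HISAT2 2.0.4, StringTie 1.3.4d, cutadapt 1.9, DESeq2 and edgeR, without a stated role. The authors deposited a whole-number count per gene row and library, not normalized, and an FPKM value scaled by them for depth and length. An FPKM of 0.0001 at a count of 0 was read as 0. A further 8 value columns belong to no labelled sample and were left aside.

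Counts were scaled to the library total (CPM), and the ratio between libraries was given an exact 95% Clopper-Pearson interval. Read copies and paired ends are not independent molecules, so intervals cover counting error only. A difference of 1.5-fold was counted by size among rows with 20 or more counts over both libraries, since 1 library per genotype allows no test. The ratio and its interval were tested on simulated data. The simulated counts held counting error only, so this checks the calculation and not the spread between samples. The alternatives were TMM (edgeR 4.0.16, R 4.3.3) and median-ratio scaling, FPKM with a pseudocount of 0.1 or 1, summed overlapping rows, other minimums, 2-fold and protein-coding rows. Halved counts and lengths of coding transcripts (GENCODE M21) were added after the data were seen. Scripts ran in Python 3.11.15 with scipy 1.17.1, pandas 2.3.3, numpy 2.4.6 and matplotlib 3.10.9.

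The members and the 9 other lists (125 genes) were chosen with earlier results of these data known. Named are all members, Mettl3, rows that overlap a member, and of each other list the 3 genes with the highest mean FPKM and those whose interval lay wholly beyond 1.5-fold. Cd247, Gzmm, the 6 granzyme genes without counts, Klrd1, Ncr1, Klra9, Klrb1a, Cma1, Tpsb2, Mcpt4, Trgc1, Trgc2, Trdc, Cd40lg, Ccdc22, Ly6g, Itgam, Ly6c1, Csf1r, Ubash3a, Lat, Cd27, Ctsw and Fasl were named after their values were seen. One gene that the rule takes is not reported here.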

Additional observations from a re-analysis of the deposited data

How the results depend on the processing

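All 50 recomputed member ratios (10 members under TMM scaling, median-ratio scaling, FPKM with a pseudocount of 0.1 or 1, and summed overlapping rows) lay within the counting interval of the reported ratio. The ratio of Gzma ranged from 1.40 to 1.61, and the median log2 ratio of the members was 0.06 under each of 7 alternatives. All 10 members remained under the other minimums, so the median could not change there. The factors of TMM (1.001 in the control and 0.999 in the LysM-cre-labelled library) and median-ratio scaling (1.000 in each) could move the ratios little. Summing overlapping rows could change only the ratio of Cd3e, because no other member overlaps a row with counts on its own strand. The count of members at 1.5-fold or more was 1, and it was 0 with FPKM and a pseudocount of 1 and 0 at 2-fold. The count over all rows, 4248, was 1024 with FPKM and a pseudocount of 1, 1789 with a minimum of 100 counts, 2345 at 2-fold and 2051 for protein-coding rows only. With counts halved, as if each were 1 end of a pair, the interval excluded 1 for the same number of members, 5. No paired analysis was possible because each genotype had 1 library.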

Other observations

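T cell receptor constant genes and T cell subset genes add to the members. The alpha and beta constant genes lay near level, with Trac at 91.0 and 95.8 FPKM (control and LysM-cre-labelled library), Trbc1 at 76.0 and 76.3 and Trbc2 at 140.1 and 149.8. The gamma and delta constant genes were all lower in the LysM-cre-labelled library: Trgc4 at 6.27 and 3.15 FPKM (CPM ratio 0.502, interval 0.423 to 0.595), Trgc1 at 3.38 and 1.86, Trgc2 at 4.13 and 3.33 and Trdc at 3.65 and 2.86. The gamma constant genes are similar in sequence, and how reads shared between them were counted is unknown, so their values are uncertain.

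Of 16 T cell factor and subset genes, 9 had a higher and 7 a lower CPM, and the median log2 ratio was 0.06. Genes known from naive and memory T cells were the most abundant, with the transcription factor gene Tcf7 at 69.3 and 73.3 FPKM, the lymph node homing receptor gene Ccr7 at 31.6 and 30.7 and the interleukin 7 receptor gene Il7r at 25.9 and 28.8. Foxp3, the factor of regulatory T cells, held 20 counts in the control against 119 in the LysM-cre-labelled library (CPM ratio 5.96, interval 3.69 to 10.1), or 0.0622 and 0.387 FPKM. Its row overlaps other rows, among them Ccdc22 on the other strand with 1355 and 1383 counts, and the handling of strand is unknown. Cd40lg, the helper ligand for CD40, went the other way on 29 and 11 counts (0.380, 0.171 to 0.784). Of protein-coding rows with 100 to 999 counts over both libraries, as Foxp3 held, 24.8% differed by 1.5-fold or more. Of those with 20 to 99 counts, as Cd40lg held, the share was 64.3%. The shares with ratios as large as these were not counted.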
